A study of Mus musculus with 11 samples.

Results

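The 37 antioxidant genes described here encode the peroxiredoxins and sulfiredoxin, the thioredoxin system, glutathione peroxidases, the enzymes of glutathione synthesis and reduction, superoxide dismutases and catalase, glutathione transferases, glutaredoxins, and the transcription factor NRF2 with its repressor KEAP1 and classical targets. The rule lists them by name, and each matched 1 of the 48709 genes in the count tables. RNA was sequenced from primary mouse hippocampal neurons, cultures of neurons taken from the hippocampus of CD1 embryos at embryonic day 17 and grown in a dish. At day 10 in vitro (DIV10), the cultures received lipid nanoparticles that held a mimic of the microRNA miR-181a-5p in 5 samples (mimic) and a negative control oligonucleotide in the other 6 (control), and RNA was taken after 48 hours, at DIV12. According to the study's methods, apolipoprotein E4 was added to the cells with the nanoparticles, so both groups share it, and the hippocampi of many embryos were pooled before plating. The labels do not say whether the samples of a group came from separate cultures, so the p-values below measure the spread between these samples, which may be technical.

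Cells that respire produce superoxide and hydrogen peroxide. Superoxide dismutases turn superoxide into hydrogen peroxide, and catalase, the peroxiredoxins and the glutathione peroxidases remove it. Thioredoxin and glutathione pass on electrons from NADPH to peroxiredoxins and glutathione peroxidases. NRF2, the product of Nfe2l2, is degraded through KEAP1 in unstressed cells and, once released, raises many of these genes through a promoter sequence named the antioxidant response element. In the brain, astrocytes are known for a stronger NRF2 response than neurons.

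A microRNA pairs mainly through its seed, bases 2 to 8, with sites in messenger RNAs, mostly in the untranslated 3′ end (3′ UTR). The 2 oligonucleotides are shown, with the seed in capitals, because they are the stated difference between the groups. The labels do not show whether anything else differed. The mimic is 23 bases long and is identical to the mature mouse miR-181a-5p that RefSeq (GRCm38.p6) lists for both Mir181a-1 and Mir181a-2.
mimic: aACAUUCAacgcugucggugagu
negative control oligonucleotide: uCACCGGGuguaaaucagcuug

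The match of the mimic's seed, TGAATGT, was found in the longest annotated 3′ UTR of 3 of the 37 antioxidant genes, namely Gpx8, Gclm and Sod2. Of the 14489 tested genes with a 3′ UTR, 18.5% held the match, and these 3′ UTRs were longer (median 1201 bases) than those of the antioxidant genes (median 719 bases). The match of the control oligonucleotide's seed, CCCGGTG, was in 0 of the 37 genes and in 2.87% of the tested genes. When all annotated 3′ UTRs were read in place of the longest, Glrx2 was the 4th member with a match, beside 19.7% of the tested genes. None of the 37 genes stood on the study's list of predicted miR-181a-5p targets. The 4 sites in the longest 3′ UTRs are shown with 10 bases on either side and the match in capitals. At these places the added oligonucleotide could pair through its whole seed. The Glrx2 match is not shown, and matches outside annotated 3′ UTRs were not counted. Positions are those of GENCODE M21 on GRCm38.
Gpx8, 3′ UTR, chr13:113042756-113042782, minus strand: aaatatacaaTGAATGTtgcaaaatat
Gclm, 3′ UTR, chr3:122268577-122268603, plus strand: aagatatattTGAATGTagtgacccag
Sod2, 3′ UTR, first site, chr17:13015904-13015930, plus strand: gtgtgctgtaTGAATGTgttcaagatg
Sod2, 3′ UTR, second site, chr17:13019267-13019293, plus strand: tgtatgcagaTGAATGTgagctgttcc
The Gclm match alone was followed by an A, the letter opposite the first base of the microRNA that is often counted with the seed. These matches are letters in an annotated sequence, and binding was not measured.

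All 37 genes were detected and passed the filter, which asked for 5 or more counts in 50% or more of the samples. Levels are given as CPM, read counts relative to library sizes scaled by the TMM method, and levels of different genes are compared only as CPM per kb of exon. In the control samples the order ran from Txn1, the cytosolic thioredoxin, at 105 ± 1.60 CPM per kb (SD, n = 6), and Gstm1, at 92.5 ± 3.64, down to Gpx3, the secreted glutathione peroxidase, at 0.468 ± 0.0760. Prdx5, Prdx2 and Prdx3 followed at 68.6, 62.6 and 55.3 CPM per kb, and Prdx6 was 10th, at 37.02. The lowest 4 genes in this order were Gpx7, Nqo1, Sod3 and Gpx3, which all lay under 2 CPM per kb in control. In raw counts, Gpx3 had as few as 12 in 1 sample. The spread between control samples was small for most members, with a median SD of 3.93% of the mean, and reached 17.9% in Sod3 and 16.2% in Gpx3.

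**Figure D1:**
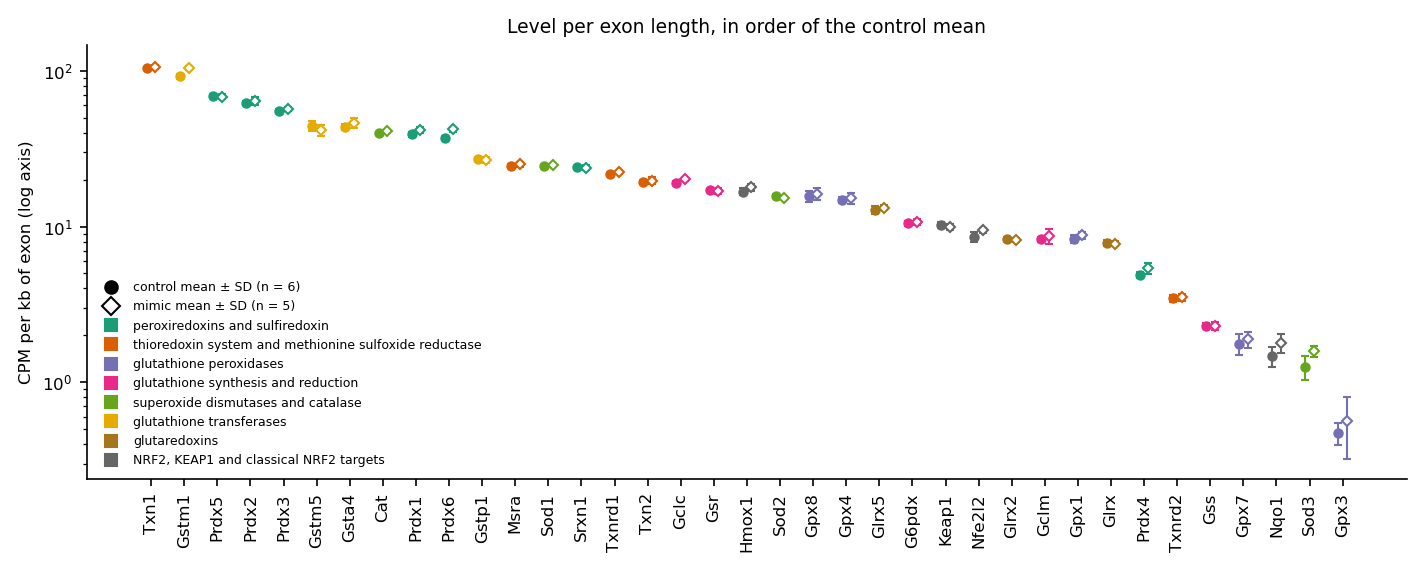
Mean level of each of the 37 antioxidant genes per kb of exon on a log axis, in order of the control mean, for 6 control samples (filled circles) and 5 mimic samples (open diamonds), with whiskers for the SD. The order runs from Txn1 at 105 to Gpx3 at 0.468 CPM per kb in control, and for most genes both groups lie on nearly the same level.

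Of the 37 genes, 2 rose in the mimic samples, Prdx6 and Gstm1, and 0 fell, at an adjusted p under 0.05 in edgeR's quasi-likelihood test with Benjamini-Hochberg adjustment over all 17365 genes tested. Over all of these genes, 2.85% were called in either direction, 1.08% higher and 1.77% lower, and the 2 calls are 5.41% of the antioxidant genes, which is about 1 gene more than the background share would give. At an unadjusted p under 0.05 stood 11 members, 10 higher and 1 lower, beside 15.7% of all genes tested (7.30% higher and 8.41% lower). The median SE of the members' log2 fold changes was 0.04. The fold change was above 0 for 28 of 37 members (75.7%) and for 49.9% of all genes tested. On the log2 scale the members' fold changes had a median of 0.04 and ran from -0.09 in Gstm5 to 0.35 in Sod3, where the median over all genes tested was -0.00015. The groups did not overlap in CPM for 4 members, Prdx6, Gstm1 and Cat higher and Sod2 lower, where 2.89% of all genes tested had groups that did not overlap. Summed over the 37 genes, the level was lowest at 2444, at the median 2464 and highest at 2497 CPM in control, and it was 2481, 2549, 2597, 2521 and 2572 CPM in the 5 mimic samples. Mimic replicate 1 lay inside the control range of this sum and the other 4 above it.

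**Figure D2:**
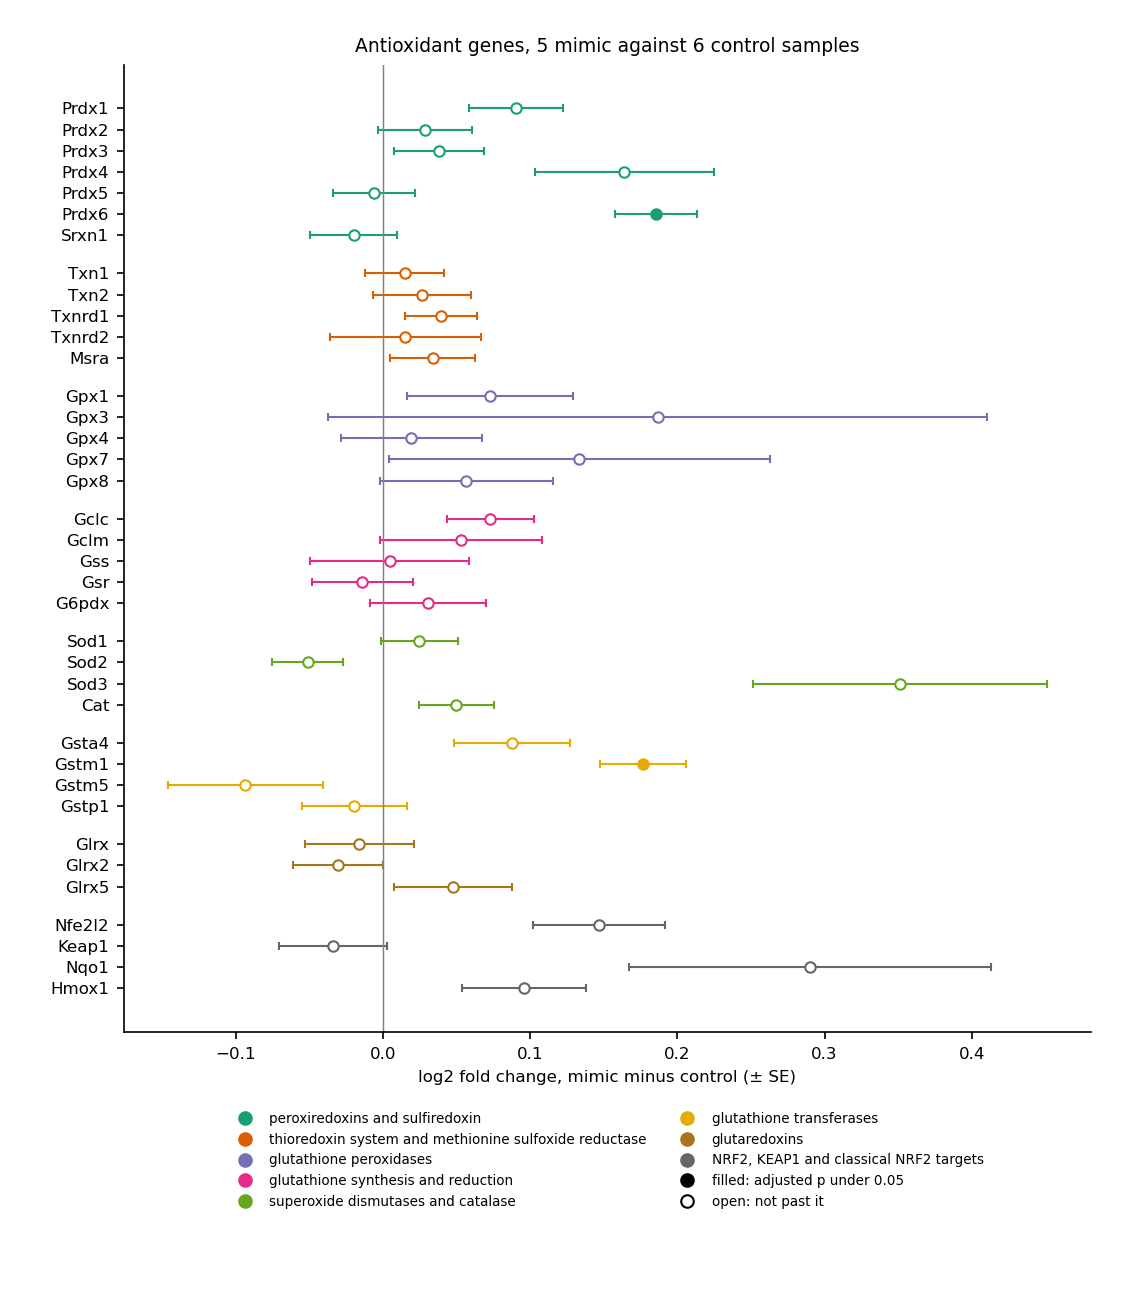
log2 fold change of each antioxidant gene, mimic minus control, with whiskers for the SE, grouped and coloured by role, with filled circles for an adjusted p under 0.05. Most of the circles lie to the right of 0, and the 2 filled ones are Prdx6 at 0.19 and Gstm1 at 0.18.

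Peroxiredoxins reduce peroxides with a reactive cysteine, and Prdx6, the only one with a single such cysteine, works with glutathione and also acts on membrane phospholipids. Prdx6 (chr1:161240112-161251219, minus strand, GRCm38) had a lowest, median and highest level of 171, 178 and 184 CPM in control. In the mimic samples it was at 188, 206, 207, 204 and 206 CPM. Every mimic sample lay above every control sample, and mimic replicate 1 stood nearest to them. The rise was 13.7%, or 0.19 on the log2 scale (SE 0.03, edgeR adjusted p = 0.000584), where the mean ± SD was 178 ± 4.92 CPM over 6 control samples and 202 ± 7.82 CPM over 5 mimic samples. Leaving out any 1 of the 11 samples kept Prdx6 called, with an adjusted p between 0.000104 and 0.00439. A near copy, Prdx6b, had at most 1 read in a sample, and so did the pseudogene Prdx6-ps2, while the handling of reads that map to several places is not given in the sources used here.

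Prdx1, a cytosolic peroxiredoxin and a known NRF2 target, had a lowest, median and highest level of 112, 118 and 125 CPM in control. It was at 121, 126, 130, 122 and 134 CPM in the mimic samples. The groups overlapped, and mimic replicates 1 and 4 lay within the control range. The log2 fold change was 0.09 (SE 0.03, edgeR adjusted p = 0.138).

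Prdx4, the peroxiredoxin of the endoplasmic reticulum, had 9.75, 10.2 and 10.8 CPM as its lowest, median and highest level in control. The mimic samples had 10.1, 12.7, 11.5, 11.4 and 11.5 CPM. Mimic replicate 1 lay inside the control range and the other 4 above it, and the difference of 0.16 on the log2 scale (SE 0.06, adjusted p = 0.158 in edgeR) did not pass the threshold. The other 3 peroxiredoxins and sulfiredoxin differed less between the groups. Prdx2, cytosolic and abundant in neurons, had 191 CPM in control and 195 in mimic (log2 fold change 0.03), and Prdx3, of the mitochondria, had 81.7 and 84.0 CPM (0.04). Prdx5 was at 147 and 146 CPM (-0.01), and Srxn1, the sulfiredoxin that restores overoxidized peroxiredoxins, at 68.3 and 67.4 CPM (-0.02). In all, 1 of the 7 genes of this group was called.

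Thioredoxin carries electrons to the peroxiredoxins and is itself reduced by thioredoxin reductase. None of the 5 genes of this group was called, and their log2 fold changes lay between 0.01 and 0.04, the narrowest range of the 8 groups. Cytosolic Txn1 had 110 CPM in control and 111 in mimic, and mitochondrial Txn2 81.4 and 82.9. The cytosolic reductase Txnrd1 had 154 and 158 CPM, and the mitochondrial Txnrd2 15.2 and 15.4. Msra, which repairs oxidized methionine in proteins, had 105 and 108 CPM.

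Glutathione peroxidases are named for reducing peroxides with glutathione, and none of the 5 measured here was called. Gpx4, which acts on lipid peroxides in membranes and protects against ferroptosis, had 25.7 CPM in control and 26.1 in mimic (log2 fold change 0.02). Gpx1 had 11.9 and 12.6 CPM (0.07), Gpx8 16.4 and 16.98 (0.06), Gpx7 2.28 and 2.43 (0.13) and Gpx3 0.849 and 1.02 (0.19). The SE for Gpx3 was 0.22 and for Gpx7 0.13, so changes of the size seen in Prdx6 were not detectable for these 2 genes at this depth. Gpx8, which holds a seed match near the end of its 3′ UTR, had a fold change above 0, with an adjusted p of 0.736 (edgeR).

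Glutathione is made in 2 steps, by glutamate-cysteine ligase (Gclc, the catalytic subunit, and Gclm, the modifier) and glutathione synthetase (Gss), and its oxidized form is reduced by Gsr with NADPH that G6pdx helps to supply. Gclc had 69.6, 72.2 and 74.2 CPM as its lowest, median and highest level in control, and 75.1, 76.4, 74.7, 74.1 and 79.0 CPM in the mimic samples. Mimic replicate 4 alone lay inside the control range. The log2 fold change of Gclc was 0.07 (SE 0.03, edgeR adjusted p = 0.208). None of the 5 genes was called. Gclm, with 1 seed match followed by an A, had 52.2 ± 2.01 CPM in control (SD, n = 6) and 54.3 ± 5.94 in mimic (SD, n = 5), which differed by 0.05 on the log2 scale (SE 0.06). Gss had 13.6 CPM in both groups, Gsr 47.2 and 46.8, and G6pdx 32.2 and 32.9.

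Among the enzymes that act on superoxide and hydrogen peroxide, none of 4 was called, although 2 of them had groups that did not overlap. Sod2, the mitochondrial superoxide dismutase and the only member with 2 seed matches, had a lowest, median and highest level of 155, 158 and 162 CPM in control. It was at 153, 153, 153, 152 and 154 CPM in the mimic samples, all below the control samples. The difference was small, -3.48% or -0.05 on the log2 scale (SE 0.02), with an unadjusted p of 0.0430 and an adjusted p of 0.296 (edgeR). The 3 genes with a seed match had log2 fold changes of 0.06 (Gpx8), 0.05 (Gclm) and -0.05 (Sod2), and none passed the threshold.

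Catalase (Cat), which breaks down hydrogen peroxide in peroxisomes, had 102, 104 and 106.83 CPM as its lowest, median and highest level in control. The mimic samples had 107, 108, 109, 108 and 106.84 CPM, and the highest control sample and the lowest mimic sample lay side by side. The log2 fold change was 0.05 (SE 0.03, edgeR adjusted p = 0.352).

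Sod3, the secreted superoxide dismutase, had the largest log2 fold change of the 37 genes at a low level. Its control samples were at 3.40 CPM at the lowest, 4.71 at the median and 5.51 at the highest, and its mimic samples at 6.69, 5.39, 5.57, 6.05 and 5.83 CPM. Mimic replicate 2 lay inside the control range. The log2 fold change of 0.35 (SE 0.10) had an adjusted p of 0.0537 (edgeR), just above the threshold of 0.05, and over 20 alternative analyses it was called in 6, with adjusted p between 0.00715 and 0.156. Cytosolic Sod1 had 97.4 CPM in control and 99.0 in mimic (0.02).

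Glutathione transferases attach glutathione to reactive molecules, and 1 of the 4 measured here was called. Gstm1, of the mu class, lies on chr3:108012255-108017973 (minus strand, GRCm38). It had a lowest, median and highest level of 126, 138 and 141 CPM in control and was at 148, 151, 159, 155 and 157 CPM in the mimic samples. Every mimic sample lay above every control sample, and 1 control sample, replicate 6, stood below the other 5. The rise was 13.04%, or 0.18 on the log2 scale (SE 0.03, edgeR adjusted p = 0.00115), from 136 ± 5.36 (SD, n = 6) to 154 ± 4.38 CPM (SD, n = 5). It stayed called when any 1 of the 11 samples was left out, with an adjusted p of at most 0.00495.

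Gstm1 belongs to a cluster of closely related genes, so its reads can be split between copies. Gstm5, also mu class and on the same chromosome, had 56.9 CPM in control and 53.5 in mimic. Its log2 fold change of -0.09 (SE 0.05) was the most negative value of the 37 genes. Of the other mu class genes, Gstm2 had 1.38 and 1.91 CPM (0.54, edgeR adjusted p = 0.0632), Gstm7 7.54 and 7.04, Gstm4 3.37 and 3.28 and Gstm6 1.32 and 1.16. These 4 together had far fewer counts than Gstm1. Gsta4, which removes the lipid peroxidation product hydroxynonenal, had 55.4 CPM in control and 58.7 in mimic (0.09, adjusted p = 0.272), and Gstp1 42.1 and 41.5 CPM (-0.02).

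The glutaredoxins, which use glutathione to reduce protein disulfides, showed no called gene of 3. Glrx had 43.1 CPM in control and 42.6 in mimic, mitochondrial Glrx2 73.1 and 71.6, and Glrx5, which serves iron-sulfur cluster assembly, 47.1 and 48.7. Their log2 fold changes lay between -0.03 and 0.05.

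Nfe2l2, which encodes NRF2, and its targets Nqo1 and Hmox1 had fold changes above 0 that did not pass the threshold. Nfe2l2 had a lowest, median and highest level of 29.1, 33.1 and 35.3 CPM in control and was at 35.6, 35.9, 34.5, 35.1 and 38.0 CPM in the mimic samples. Mimic replicates 3 and 4 lay inside the control range and the other 3 above it. The log2 fold change was 0.15 (SE 0.04), with an adjusted p of 0.0737 (edgeR) that passed the threshold in 2 of 20 alternative analyses, over which it ran from 0.0285 to 0.252. Keap1, which holds NRF2 for degradation, had 48.0 CPM in control and 46.8 in mimic (-0.03, adjusted p = 0.748).

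Nqo1, a quinone reductase and the target most often used to read NRF2 activity, was nearly at the bottom of the order of levels. It had 1.78, 2.34 and 2.74 CPM as lowest, median and highest level in control, and 2.13, 2.70, 3.14, 2.99 and 2.89 CPM in the mimic samples. Mimic replicates 1 and 2 lay inside the control range, and the log2 fold change of 0.29 (SE 0.12) had an adjusted p of 0.232 (edgeR). Hmox1, heme oxygenase 1, had 29.4 ± 1.52 CPM in control (SD, n = 6) and 31.2 ± 1.51 in mimic (SD, n = 5), which differed by 0.10 on the log2 scale (SE 0.04, adjusted p = 0.257 in edgeR).

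**Figure D3:**
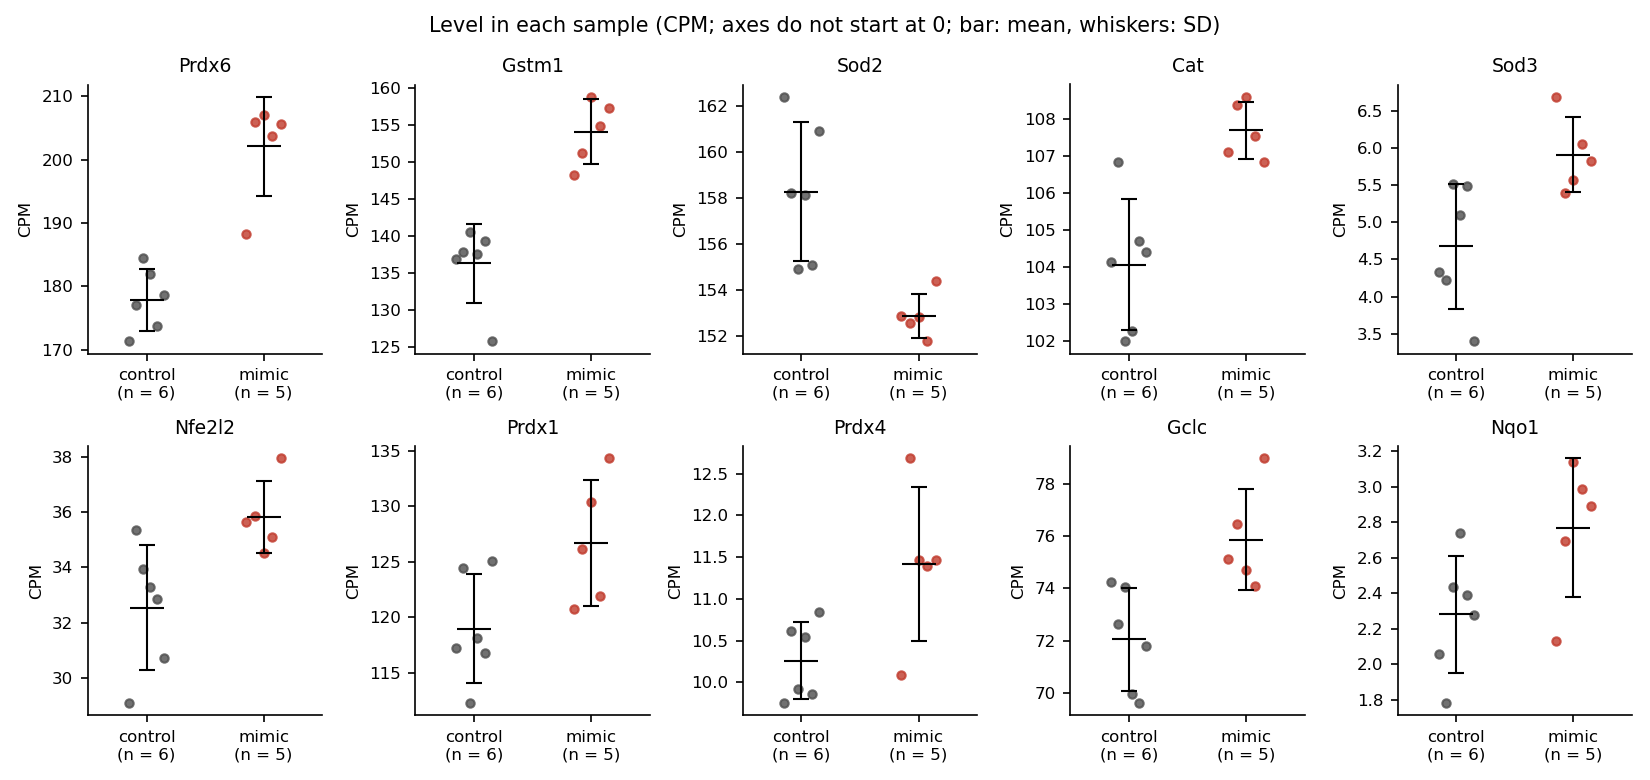
Level in CPM of each of the 6 control and 5 mimic samples for 10 antioxidant genes, with bars for the mean and whiskers for the SD, on axes that do not start at 0. The groups are apart for Prdx6, Gstm1, Sod2 and Cat and overlap for the other 6 genes, and only Prdx6 and Gstm1 passed the adjusted threshold.

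The antioxidant response element was searched as the letters TGACNNNGC on both strands, in promoter windows of 300 bases from RefSeq (GRCm38.p6), 250 before and 50 after the start of a gene. Windows were found for 30 of the 37 genes, and 8 of these (26.7%) held the letters, beside 14.0% of the 27025 genes with a window. The 8 were Nfe2l2, Srxn1, Gstm5, Gclm, Prdx1, Txnrd1, Sod1 and G6pdx. None of them was called, and their log2 fold changes ran from -0.09 in Gstm5 to 0.15 in Nfe2l2. Of the 2 called genes, Gstm1 did not hold these letters in its windows, which says nothing of sequence outside them, and Prdx6 was among the 7 genes that were not searched. The matches of 4 well-known NRF2 targets are shown with 10 bases on either side and the match in capitals, as examples of what the search found in this family.
Prdx1, promoter, chr4:116685456-116685484: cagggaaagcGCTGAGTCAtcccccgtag
Srxn1, just past the start, chr2:152105542-152105570: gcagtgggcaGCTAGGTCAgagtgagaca
Gclm, promoter, chr3:122245413-122245441: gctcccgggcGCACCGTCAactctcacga
Txnrd1, promoter, chr10:82859104-82859132: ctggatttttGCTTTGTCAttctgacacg
All 4 are given on the strand of the gene and hold the letters on the opposite strand. The Prdx1 match overlaps the letters TGANTCA, which the factor AP-1 is known to read, and such matches describe a sequence and not bound sites.

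Of 117 other genes of the same pathways, 111 passed the count filter, and 2 rose and 2 fell (3.60% of those tested, against 2.85% of all genes). The median log2 fold change of these genes was 0.01. Both genes that fell serve glutathione supply and turnover. Cbs, cystathionine beta-synthase, which starts the route from homocysteine to cysteine, had 28.7 ± 2.33 CPM in control (SD, n = 6) and 24.1 ± 2.25 in mimic (SD, n = 5), and fell by 0.26 on the log2 scale (SE 0.06, adjusted p = 0.0184 in edgeR). Chac1, which degrades glutathione, had 14.3 ± 1.09 and 12.1 ± 1.13 CPM (-0.24, SE 0.06, adjusted p = 0.0325).

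The 2 genes that rose were Ggt5 and H6pd. Ggt5, a gamma-glutamyl transferase that cleaves glutathione and its conjugates outside the cell, had 3.35 ± 0.562 CPM in control and 4.41 ± 0.613 in mimic (log2 fold change 0.45, SE 0.12, edgeR adjusted p = 0.0393). H6pd, which makes NADPH in the endoplasmic reticulum, had 10.8 ± 0.599 and 12.8 ± 1.55 CPM (0.25, SE 0.07, adjusted p = 0.0348). The groups overlapped in CPM for all 4 of these genes. With each of the 11 samples left out in turn, Cbs stayed called in 9 fits, Ggt5 in 5, H6pd in 4 and Chac1 in 3, where Prdx6 and Gstm1 stayed called in all 11. None of the 4 was called without control replicate 1 or without mimic replicate 2. By group, 3 of 14 genes of glutathione supply and turnover and 1 of 13 of NADPH supply were called. No gene was called among 12 NRF2 partners and repressors, 18 other NRF2 targets, 17 tested of 23 other glutathione transferases and peroxidases, 24 other thioredoxin-fold and repair proteins and 13 of selenoprotein synthesis.

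Markers of the cells that such a culture can hold differed between the groups, and in bulk RNA fewer cells of a type cannot be told apart from less RNA per cell. The culture had neuronal markers at high levels, such as Map2 at 2608 CPM in control, and also astrocyte markers, such as Slc1a2 at 2398 and Gfap at 731. Of 10 astrocyte markers 1 fell, the glutamate transporter Slc1a2 (log2 fold change -0.18, edgeR adjusted p = 9.9e-05), and 0 rose. Summed over the 10 markers, the level lay between 4904 and 5349 CPM in control and between 4501 and 4817 CPM in mimic. The groups did not overlap in this sum, which was lower in mimic. Slc1a2 was the largest part of it, with means of 2398 CPM in control and 2109 CPM in mimic. Slc1a2 was also the only 1 of the 10 markers with groups that did not overlap. A difference of the sum without Slc1a2 was not tested. Of the 10 markers 7 had a log2 fold change below 0, and at an unadjusted p under 0.05 stood 5 lower and 1 higher. The uncalled ones had log2 fold changes of -0.17 (Aldoc), -0.16 (S100b), -0.14 (Gfap), -0.11 (Aqp4), -0.09 (Fgfr3), -0.001 (Aldh1l1), 0.001 (Slc1a3), 0.05 (Gja1) and 0.54 (Gjb6, at under 1 CPM in both group means).

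Of 10 pericyte and fibroblast markers, 8 passed the count filter, and 1 fell (Rgs5, log2 fold change -0.66) and 0 rose. Of these 8 markers 7 had a log2 fold change above 0. All 8 stood at an unadjusted p under 0.05 in edgeR, 7 higher and 1 lower. Their summed level lay between 265 and 401 CPM in control and between 411 and 544 CPM in mimic, carried by collagens that did not pass the adjusted threshold, and the defining pericyte markers Abcc9 and Kcnj8 had at most 6 counts in a sample. Of 10 markers of proliferating cells, 4 rose (Top2a, Cdk1, Ccna2 and Rrm2). All 10 had a log2 fold change above 0, and 9 stood at an unadjusted p under 0.05. The sum over the 10 was 90.6 to 99.5 CPM in control and 106 to 117 CPM in mimic. Of 6 tested endothelial markers Cdh5 alone rose, while Cldn5 had at most 1 count and Ly6c1 at most 2. Of 10 neuronal markers Slc17a6 rose and Slc17a7 fell. The log2 fold change was below 0 for 8 of the 10, and at an unadjusted p under 0.05 stood 6 lower and 1 higher. The sum over the 10 was 7076 to 7239 CPM in control and 6803 to 6954 CPM in mimic. None of 10 microglial markers was called, with sums of 27.4 to 29.2 CPM in control and 24.7 to 26.8 in mimic, and none of 9 tested markers of the oligodendrocyte lineage, with sums of 335 to 404 and 307 to 355 CPM. The part of any of these cell types in the values of Prdx6, Gstm1 or the other antioxidant genes was not tested.

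**Figure D4:**
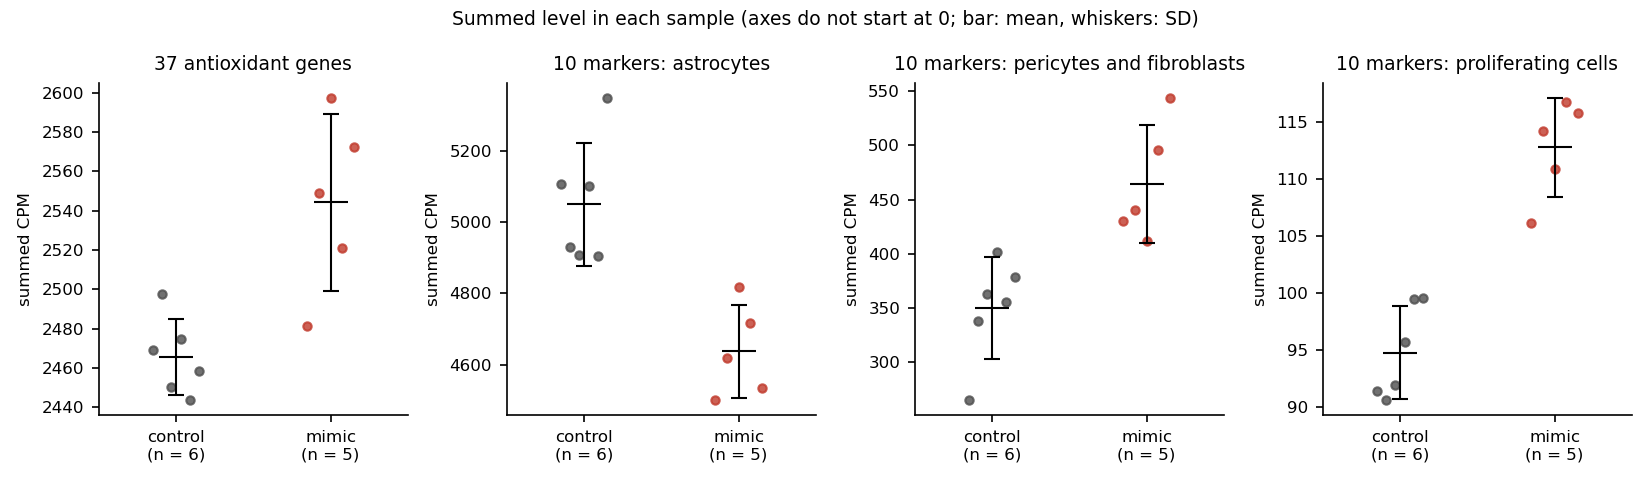
Summed CPM per sample of the 37 antioxidant genes and of 10 markers each of astrocytes, pericytes and fibroblasts, and proliferating cells, with bars for the mean and whiskers for the SD, on axes that do not start at 0. The astrocyte sum, of which Slc1a2 is the largest part, is lower in all 5 mimic samples than in all 6 control samples. The other 2 marker sums are higher in all 5 mimic samples, while the antioxidant sum of mimic replicate 1 lies inside the control range.

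Total counts per sample lay between 17287168 and 48091231, with control replicate 1 the deepest. The share of all counts in the 37 genes was 0.242% to 0.249% in control and 0.248% to 0.262% in mimic. Since the options for strand are not given in the sources used here, reads of overlapping genes cannot be told apart, and 8 of the 37 genes share annotated exon bases with another gene, the most being Prdx5, where Trmt112 on the opposite strand covers 19.1% of the exon length. Neither Prdx6 nor Gstm1 is among those 8.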

How the data were processed

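Poly(A) RNA from 11 samples was sequenced as single-end reads of 50 bases. Per the submitters' processing notes, FastQC 0.11.5, STAR 2.5.2b and featureCounts (Subread 1.5.1) were used with the mouse genome build mm10, and the authors deposited raw counts per Ensembl gene for each sample. A table of normalized signal was deposited too. For genes with at least 50 counts, every column equalled the counts divided by 1 size factor (largest relative deviation 4.94e-10). The table of normalized signal held 16921 genes and served as an alternative only. The annotation release, the strand setting and the handling of multi-mapped reads are not given in the sources used here.

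The 17365 genes with 5 or more counts in 50% or more of the samples entered edgeR's two-sided quasi-likelihood test (edgeR 4.0.16, R 4.3.3; TMM scaling, robust dispersion, no covariate). The p-values were adjusted by Benjamini-Hochberg over all of these genes, and an adjusted p under 0.05 was a call. Filter and threshold follow the study, which used DESeq2. The fit was tested on simulated data. Symbols, positions, exon lengths and the 3′ UTRs of protein-coding transcripts came from GENCODE M21, which 48349 genes matched. As alternatives, DESeq2 1.42.0, 2 other scalings, 2 other filters, the omission of single samples, a replicate block, and limma 3.58.1 on the normalized table as log2(value + 1) or log2(value + 0.5) were run.

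At a count of 0, up to 3 counts remain possible, for counting error only. Relative to total counts without TMM scaling, this is 0.0624 CPM in the deepest and 0.174 CPM in the shallowest sample. The members and the lists of other pathway genes and markers were chosen with earlier results of these data known. Values in every sample are given for members that were called, that had groups without overlap, or that were among the 6 uncalled members with the smallest p. Of the other pathway genes every called one is named. Gstm2, Gstm4, Gstm6, Gstm7 and single marker genes were named after their values were seen.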

Additional observations from a re-analysis of the deposited data

Results flagged for a closer look

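Among 78 sets of values, the 37 antioxidant genes, their share of counts and the total count in each group, 4 held a sample set apart from the rest of its group by Dixon's criterion, where chance gives about 1 in 20, or 3.9. In control, Gstm1 was at 125.7 CPM in replicate 6 and between 137 and 141 in the other 5 samples. In mimic, Prdx6 was at 188 CPM in replicate 1 and between 204 and 207 in the others, and Prdx2 was at 176 CPM in the same sample and between 196 and 204 in the others. Prdx5 was at 155 CPM in mimic replicate 3 and between 143 and 146 in the others. Without control replicate 6 the log2 fold change of Gstm1 was 0.16 (edgeR adjusted p = 0.00143), and without mimic replicate 1 that of Prdx6 was 0.21 (adjusted p = 0.000104).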

How the results depend on the processing

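Prdx6 and Gstm1 were higher and called under each of the 20 alternatives, with log2 fold changes of 0.17 to 0.21 and 0.16 to 0.19, and no antioxidant gene was called lower under any. Of 200 alternative values for 10 members, none changed direction, 192 stayed on their side of the threshold and 8 became called, 6 of Sod3 and 2 of Nfe2l2. Without a count filter, 4 antioxidant genes were called higher (Nfe2l2 and Sod3 besides), and of the other pathway genes 4 were called higher and 4 lower. Leaving out 1 sample gave 2 to 3 antioxidant genes higher and 0 lower, 0 to 4 other pathway genes higher and 0 to 3 lower. Of the other pathway genes, 0 were called higher without control replicate 1, 2 or 6 or mimic replicate 2 or 4, and 0 lower without control replicate 1 or mimic replicate 2. Over all genes, 218 were called without control replicate 1, 237 without mimic replicate 2 and 278 without mimic replicate 4. On the normalized table with either pseudocount, 0 of the other pathway genes were called higher and 1 lower (Cbs). Between 26 and 31 of the 37 members had a fold change above 0 under the alternatives, and the median log2 fold change of all genes was 0.002 with RLE scaling and 0.01 with upper-quartile scaling.

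The label numbers showed no sign of pairing. Same-numbered samples correlated at -0.17 to 0.14 in their deviations over 5 pairs, and other pairs at -0.30 to 0.29. So few pairs cannot exclude a shared culture or batch. A replicate block on these numbers, which leaves out control replicate 6, called 2 antioxidant genes higher and 0 lower, and 2 other pathway genes higher and 1 lower (Cbs). The same 10 samples without the block, added after the data were seen, gave 2, 0, 0 and 1. Over all genes the block called 328, against 350 without it. Depth limits Gpx3, Gpx7, Nqo1 and Sod3, whose SE of 0.10 to 0.22 exceed those of the other members.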
